A study of Mus musculus with 6 samples.

Results

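Elastic fiber and microfibril genes were followed in D2A1, a mouse mammary tumor cell line, after treatment with rSLURP1 or rGST. The 10 genes were Eln, Fbn1, Fbln1, Fbln2, Fbln5, Mfap2, Mfap4, Mfap5, Ltbp1 and Ltbp2, taken by symbol from a table of 54146 genes, in which each was listed on exactly 1 line. Elastic fibers consist of a core of crosslinked elastin laid down on a scaffold of fibrillin microfibrils. Fibulins bridge elastin, microfibrils and the surrounding matrix, and microfibril-associated glycoproteins bind along the fibrillin scaffold. Latent TGF-β binding proteins (LTBPs) resemble fibrillins in domain structure, and several of them anchor latent TGF-β in the matrix.

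The libraries came from D2A1 cells in 3D Matrigel, a basement membrane gel, in medium with 10% FBS. Recombinant SLURP1, a small secreted protein, was used for 3 libraries, and recombinant GST, the control protein, for the other 3, both at 50 nM according to the sample labels. All 6 libraries are of the same line with the control genotype, and the study harvested the cells on the fifth day. The labels do not say whether replicates of a treatment were separate cultures, so p-values measure the spread between these libraries, which may be technical. They name a TruSeq mRNA kit, whereas the methods of the study describe Smart-seq2, and the strand setting is not given in the sources used here. Values are TPM, which corrects reads for transcript length and scales every library to the same total, so the genes could be compared with each other. TPM does not hold the depth of a library, which is therefore unknown.

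Fold changes are differences of mean log2(TPM + 1), rSLURP1 minus rGST, and understate the change of low genes. They were tested with limma over the 12301 genes that reached 1 TPM in 3 or more libraries. The median gene of that set changed by -0.33 with rSLURP1, and 58.5% of tested genes were called lower against 8.66% called higher at an adjusted p of 0.05. Changes are therefore also given relative to that median, and after median-ratio scaling, which brings the median gene to 0.0063. In bulk RNA, fewer cells of a type and less RNA per cell cannot be told apart. The line did not carry most epithelial markers of a mammary cell: Epcam, Krt5 and Krt14 were at 0 in every library and Cdh1 reached at most 0.07 TPM, while Krt18 stood at 195.6 TPM with rGST and 197.7 with rSLURP1. Krt8 was low, at 1.56 and 0.697 TPM. Of 6 mesenchymal genes, Vim, Fn1 and Twist1 were abundant, with mean TPM of 1259, 5416 and 231.7 under rGST, while Zeb1 was at 10.9, Snai2 at 0.937 and Cdh2 at 0.0300.

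The clearest differences were in Mfap5, which nearly disappeared with rSLURP1, and in Ltbp2, Fbln2 and Fbln1, which fell to smaller degrees. Ltbp1 was not called. Elastin itself was not measured above 0 in any library, and fibrillin-1 was close to 0. Of the 10 genes, 6 passed the filter and 5 of these were called lower and at least 2-fold lower, set against 7.06% of all tested genes that were lower by at least 2-fold. Mfap4 passed the filter through its rGST libraries alone, where it was high, so it had to differ, and without it the count was 4 of 5 genes. The libraries of the treatments did not overlap, lower with rSLURP1, for 6 of the 10 genes, one of which was not tested. Over all tested genes this held for 61.7%, so the direction alone was common. None of the 10 genes was called higher, called higher by at least 2-fold, or higher without overlap, beside 8.66%, 1.15% and 9.75% of tested genes. After median-ratio scaling the same 5 genes were called lower, or 4 without Mfap4, beside 24.6% of all tested genes. Of these, 3 were lower by at least 2-fold (Mfap5, Ltbp2 and Mfap4), or 2 without Mfap4, beside 3.74% of all tested genes.

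**Figure D1:**
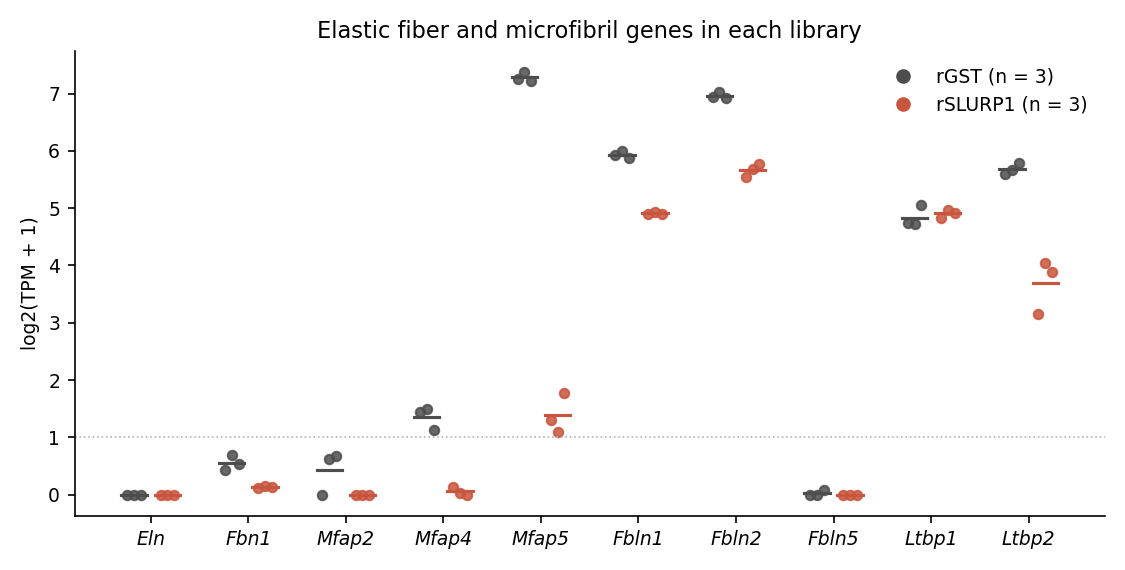
Level of the 10 elastic fiber and microfibril genes as log2(TPM + 1), with a point for each of the 3 rGST and 3 rSLURP1 libraries, a bar at each mean and a dotted line at 1 TPM. Mfap5, Ltbp2, Fbln2 and Fbln1 stand lower in every rSLURP1 library, Ltbp1 overlaps, and Eln, Fbn1, Mfap2 and Fbln5 lie below 1 TPM throughout.

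The core and the backbone came first. Eln (ENSMUSG00000029675.12; chr5:134702593-134747323, minus strand, GRCm38), which encodes tropoelastin, was at 0 TPM in all 6 libraries. Fbn1 (ENSMUSG00000027204.13; chr2:125300594-125507993, minus strand), the gene of the principal microfibril protein, read 0.35, 0.61 and 0.44 TPM with rGST and 0.08, 0.11 and 0.09 TPM with rSLURP1. The groups did not overlap, yet every library was below the level at which genes were tested. The exons of Fbn1 share 2442 bases with Gm9913 on the opposite strand, and reads there cannot be told apart without strand. Gm9913 was at 0 TPM in all 6 libraries. Without the filter, limma over 23334 genes gave a log2 change of -0.42 for Fbn1 (adjusted p = 0.00658), in a fit that called 29.5% of genes lower and 4.2% higher. The exact permutation p for Fbn1, two-sided, was 0.1, the smallest that 3 libraries against 3 allow. Fibrillin-2, the other microfibril backbone gene of the mouse (Fbn2), was at 0 in all 6 libraries.

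Mfap5 encodes MAGP-2, a microfibril-associated glycoprotein that binds fibrillin. The gene (ENSMUSG00000030116.14) lies at chr6:122505845-122529290 on the plus strand, with no other annotated gene over its exons. Its TPM was 152.21, 165.69 and 147.61 with rGST and 1.48, 1.12 and 2.41 with rSLURP1. It was the most abundant of the 10 genes in the controls, and no treated library came near any control library. The means were 155.2 ± 9.40 (SD, n = 3) and 1.67 ± 0.666 TPM, a 92.9-fold difference that left 1.08% of the control level. In limma's fit the log2 change was -5.90 (SE 0.162; 95% interval -6.27 to -5.52; adjusted p = 3.25e-07), or -5.57 relative to the median gene. It held the rank of 8 from the lowest among the 12301 log2 changes.

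Fibroblast markers moved with Mfap5. Of the 8 markers listed, 5 were tested: Dcn, Lum, Pdgfra, Pdgfrb and Col1a1. All 5 were lower by at least 2-fold, beside 7.06% of all tested genes, and also after median-ratio scaling, beside 3.74%. Col1a2, Col3a1 and Thy1 stayed under 1 TPM in every library. The summed level of the list ranged from 1008 to 1139 TPM with rGST and from 75.2 to 85.3 with rSLURP1. Decorin (Dcn), a small leucine-rich proteoglycan of the collagen matrix, had means of 580.7 and 5.46 TPM. Lum, another proteoglycan gene of that family, had means of 176.7 and 0.907 TPM. The receptor genes Pdgfra and Pdgfrb changed less, 3.66-fold and 5.49-fold. Col1a1 passed the filter through its rGST libraries alone, and without it the count was 4 of 4 genes. The ratio of Mfap5 to Dcn within a library was 0.268 ± 0.0217 with rGST and 0.312 ± 0.142 with rSLURP1 (SD, n = 3, two-sided exact permutation p = 0.8). The part of these markers in the result was not tested. Of 6 mesenchymal markers, 4 were tested and all 4 were lower, 1 by at least 2-fold, beside 58.5% and 7.06% of all tested genes. After median-ratio scaling 3 were lower and none by at least 2-fold, beside 24.6% and 3.74%. The summed level of the 6 was 6838 to 7024 TPM with rGST and 3738 to 3980 with rSLURP1. Smooth muscle markers, for cells that deposit elastic fibers in vessels, summed to 3.94 to 6.06 TPM and 0.93 to 1.98 TPM. Of the leukocyte markers, Ptprc and Csf1r were near 0 and Adgre1 at 0, while Cd68 rose from 3.77 to 9.60 TPM.

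Mfap2 (ENSMUSG00000060572.17; chr4:141010418-141015984, plus strand), which encodes MAGP-1, the closest relative of MAGP-2, was scarcely present. It read 0, 0.54 and 0.59 TPM with rGST and 0 in all 3 rSLURP1 libraries, so the groups overlapped at 0. The gene was not tested with the filter, and without it the adjusted p in limma was 0.139. The pair of related glycoproteins therefore differed in level by far: only Mfap5 was expressed at more than 1 TPM.

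Mfap4 encodes a fibrinogen-domain glycoprotein that associates with microfibrils. The gene (ENSMUSG00000042436.12; chr11:61485431-61488900, plus strand) read 1.73, 1.83 and 1.19 TPM with rGST and 0.10, 0.02 and 0 TPM with rSLURP1. All treated libraries were below all controls, at levels that are low in both treatments. Its log2 change was -1.30, and -3.63 with a pseudocount of 0.1 in place of 1. It is given with no test, because the filter kept the gene through its rGST libraries alone. Its exons share 89 bases with Mapk7 on the opposite strand, which read 31.2 TPM with rGST and 26.8 with rSLURP1 (adjusted p = 0.0624, limma). Reads within those shared bases cannot be told apart without strand.

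**Figure D2:**
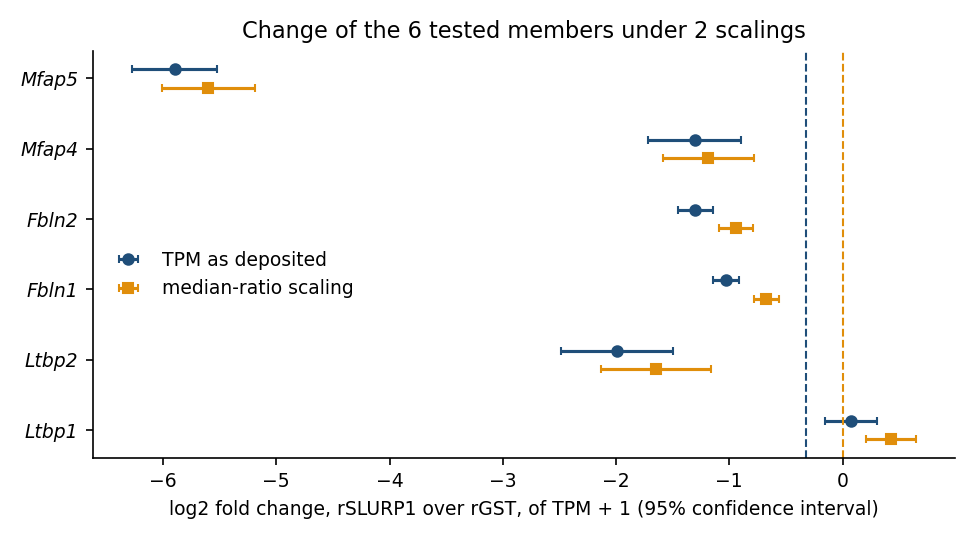
Log2 fold change, rSLURP1 minus rGST, with its 95% interval for the 6 genes that were tested, from limma on log2(TPM + 1) and after median-ratio scaling, with a dashed line at the median gene of each scaling. Mfap5 stands apart at -5.90, Mfap4 passed the filter through rGST alone, and the interval of Ltbp1 spans 0 in the deposited TPM (-0.15 to 0.30) and lies above 0 after scaling (0.21 to 0.65).

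Of the 3 fibulin genes, 2 were expressed. Fbln2 encodes fibulin-2, which binds elastin and fibrillin-1, and lies at chr6:91212455-91272540 on the plus strand (ENSMUSG00000064080.12). Its TPM was 122.37, 129.70 and 120.08 with rGST and 45.45, 50.68 and 53.58 with rSLURP1. Every treated library was far below every control library, and the means were 124.1 ± 5.03 and 49.9 ± 4.12 (SD, n = 3). The log2 change in limma was -1.30 (SE 0.0666; 95% interval -1.45 to -1.14; adjusted p = 4.67e-06), and -0.94 after median-ratio scaling (adjusted p = 2.35e-05).

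Fbln1 encodes fibulin-1, a component of elastic fibers and basement membranes, and lies at chr15:85205949-85286535 on the plus strand (ENSMUSG00000006369.14). Its TPM was 60.29, 62.87 and 57.78 with rGST and 28.91, 29.44 and 28.91 with rSLURP1. The treated libraries were nearly equal and lay below all controls, with means of 60.3 ± 2.55 and 29.1 ± 0.306 TPM (SD, n = 3). The log2 change in limma was -1.03 (SE 0.0498; 95% interval -1.14 to -0.91; adjusted p = 3.81e-06), and -0.67 after median-ratio scaling (adjusted p = 2.66e-05), under 2-fold. Fbln1 was also under 2-fold, at -0.996, when the second rGST library was left out. The ratio of Fbln2 to Fbln1 within a library was 2.06 ± 0.0248 with rGST and 1.72 ± 0.141 with rSLURP1, without overlap (exact permutation p = 0.1, two-sided).

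Fbln5 (ENSMUSG00000021186.9; chr12:101746565-101819055, minus strand), whose product fibulin-5 guides elastin onto microfibrils, was at 0 in 5 libraries and at 0.06 TPM in the third rGST library. No change could be measured at that level.

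Sequences before RefSeq starts of the 2 expressed fibulin genes are shown because both genes fell. They are the 250 bases before a RefSeq start (GRCm38.p6), read 5′ to 3′ in the direction of the gene, with matches to CCACCC and GGGCGG on either strand in capitals. The windows are chr6:91212514-91212763 for Fbln2 and chr15:85205699-85205948 for Fbln1, both on the plus strand. The Fbln2 window lies inside the gene at the coordinates given above, so its start is an internal one.
Fbln2: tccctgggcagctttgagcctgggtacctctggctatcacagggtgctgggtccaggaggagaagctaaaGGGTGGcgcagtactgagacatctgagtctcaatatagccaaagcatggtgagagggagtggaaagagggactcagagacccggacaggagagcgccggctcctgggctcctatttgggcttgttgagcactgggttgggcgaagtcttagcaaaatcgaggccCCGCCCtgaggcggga
Fbln1: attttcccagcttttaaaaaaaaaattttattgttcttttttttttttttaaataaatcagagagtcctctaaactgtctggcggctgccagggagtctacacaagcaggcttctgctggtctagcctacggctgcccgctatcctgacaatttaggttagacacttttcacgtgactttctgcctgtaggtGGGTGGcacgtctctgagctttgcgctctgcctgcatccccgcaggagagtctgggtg
Fbln2 held CCACCC once, 180 bases before the start, and GGGCGG once, 16 bases before it. Fbln1 held CCACCC once, at 58 bases. Fbln1 has another RefSeq start nearby, whose window (chr15:85205758-85206007, not printed, since most of it is in the window above) held CCACCC at 117 and at 64 bases and GGGCGG at 11 bases. Of 32851 mouse promoters of this length, 28.1% held CCACCC and 32.7% held GGGCGG, so neither match sets these genes apart.

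The LTBP genes gave different results. Ltbp2, which encodes an LTBP that binds fibrillin and fibulin-5 and does not bind latent TGF-β, lies at chr12:84783212-84876532 on the minus strand (ENSMUSG00000002020.15). It read 47.46, 49.89 and 54.12 TPM with rGST and 7.90, 15.57 and 13.72 with rSLURP1. The first treated library was the lowest, and all 3 were far below the controls. The means were 50.5 ± 3.37 and 12.4 ± 4.0 TPM (SD, n = 3), a 4.07-fold difference, and the log2 change in limma was -1.99 (SE 0.211; 95% interval -2.48 to -1.50; adjusted p = 1.30e-04). Without the first rSLURP1 library the change was -1.72. The exons share 764 bases with D030025P21Rik on the opposite strand, and reads there have the same limit as those of Mfap4 and Mapk7.

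Ltbp1 encodes an LTBP that binds the latent form of TGF-β and holds it in the matrix. It lies at chr17:75005568-75392512 on the plus strand (ENSMUSG00000001870.15). Its TPM was 25.73, 25.38 and 32.18 with rGST and 27.60, 30.50 and 29.38 with rSLURP1. The libraries of the treatments overlapped, with means of 27.8 ± 3.83 and 29.2 ± 1.46 (SD, n = 3). The log2 change in limma was 0.08 (SE 0.0966; 95% interval -0.15 to 0.30; adjusted p = 0.512), an interval that leaves out the median gene's -0.33. Relative to that gene the change was 0.40, and after median-ratio scaling Ltbp1 was called higher at 0.43 (adjusted p = 0.00724), beside 26.6% of tested genes called higher. Whether Ltbp1 rose thus depends on the scaling of the libraries.

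**Figure D3:**
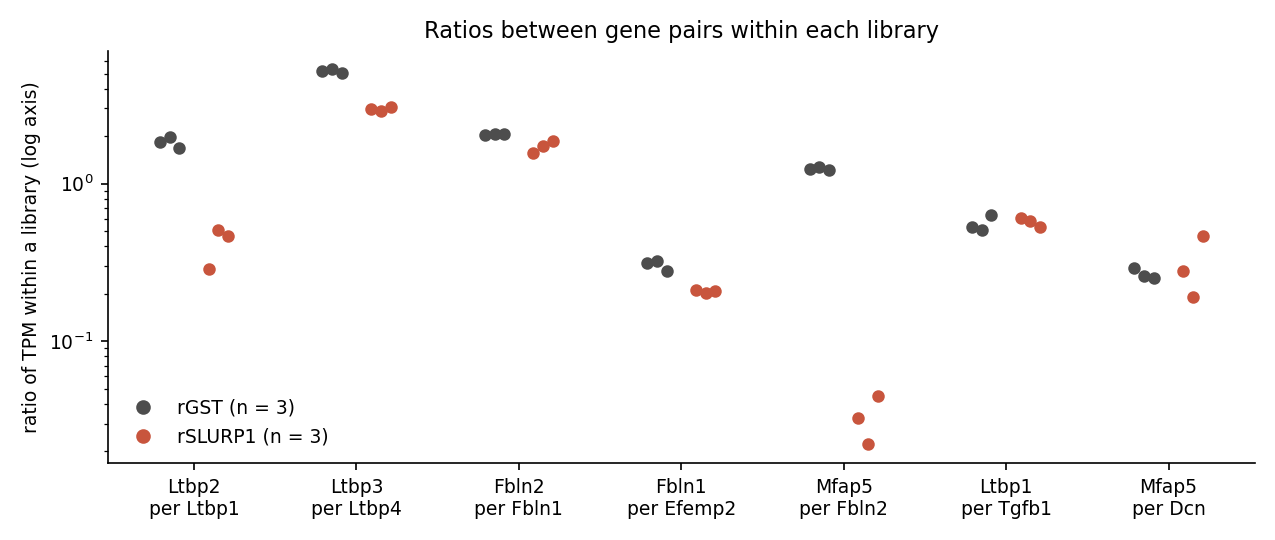
Ratios of TPM between pairs of genes inside each library, on a log axis, with a point for each of the 3 rGST and 3 rSLURP1 libraries. Of the 7 ratios computed, 5 are lower in every rSLURP1 library, most of all Mfap5 per Fbln2 (37.6-fold) and Ltbp2 per Ltbp1 (4.35-fold), and Ltbp1 per Tgfb1 and Mfap5 per Dcn overlap.

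A ratio inside a library is free of that choice. Ltbp2 per Ltbp1 was 1.83 ± 0.142 with rGST and 0.421 ± 0.119 with rSLURP1 (SD, n = 3), 4.35-fold lower without overlap (two-sided exact permutation p = 0.1). In the controls Ltbp2 was therefore the higher of the pair in every library, and with rSLURP1 it was the lower in every library. The ratio of Ltbp1 to Tgfb1, the gene of the TGF-β1 ligand, was 0.556 ± 0.0635 and 0.573 ± 0.0420 (exact permutation p = 0.8). Mfap5 per Fbln2 was 37.6-fold lower, at 1.25 ± 0.0247 and 0.0332 ± 0.0115, also without overlap (exact permutation p = 0.1).

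Windows before RefSeq starts of the LTBP genes are given because Ltbp2 was called lower and Ltbp1 was not. The second Ltbp1 window lies inside the gene at the coordinates given above, and the Ltbp2 window overlaps the beginning of its gene. All were read from RefSeq in the same way, at chr12:84876492-84876741 on the minus strand for Ltbp2, and at chr17:75005279-75005528 and chr17:75178531-75178780 on the plus strand for the 2 starts of Ltbp1.
Ltbp2: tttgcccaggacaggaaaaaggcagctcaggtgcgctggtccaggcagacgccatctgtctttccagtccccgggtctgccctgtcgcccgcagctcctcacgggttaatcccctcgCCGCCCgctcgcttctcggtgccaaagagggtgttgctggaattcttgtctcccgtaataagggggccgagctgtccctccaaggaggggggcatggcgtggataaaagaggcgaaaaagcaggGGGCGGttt
Ltbp1, first start: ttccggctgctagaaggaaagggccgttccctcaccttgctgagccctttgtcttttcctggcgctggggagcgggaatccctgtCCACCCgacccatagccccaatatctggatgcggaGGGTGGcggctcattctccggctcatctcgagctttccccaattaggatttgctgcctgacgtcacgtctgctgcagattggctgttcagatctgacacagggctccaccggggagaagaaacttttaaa
Ltbp1, second start: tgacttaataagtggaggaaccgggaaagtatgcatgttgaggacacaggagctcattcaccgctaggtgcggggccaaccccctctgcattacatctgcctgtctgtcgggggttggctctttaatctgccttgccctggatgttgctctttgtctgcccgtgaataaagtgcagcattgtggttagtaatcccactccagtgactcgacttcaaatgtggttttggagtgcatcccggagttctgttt
Ltbp2 held GGGCGG at 133 and at 9 bases before the start. The first window of Ltbp1 held CCACCC at 165 and at 130 bases, and the second window held neither motif. The motifs TATAAA and TGANTCA were found in none of the 11 windows of the 7 genes with an entry, beside 12.4% and 6.7% of all promoters. These are matches of letters in a window and say nothing of binding.

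The order of the levels changed with treatment. With rGST the order was Mfap5, Fbln2, Fbln1, Ltbp2, Ltbp1 and Mfap4, with no overlap between neighbours. The rest (Fbn1, Mfap2, Fbln5 and Eln) lay below 1 TPM, and neighbours there overlapped. With rSLURP1, Fbln2 was first, Ltbp1 and Fbln1 overlapped in the next places, and Ltbp2 and Mfap5 followed. The summed level of the 10 genes was 420.2 ± 14.2 TPM (SD, n = 3) under rGST and 122.4 ± 9.38 under rSLURP1, 29.1% of the control. Without Mfap5 the sums were 265.1 ± 6.55 and 120.7 ± 9.22, 45.5% of the control. Mfap5 held 36.9% ± 1.17 of the summed level in the controls and 1.36% ± 0.502 with rSLURP1, while the share of Ltbp1 went from 6.62% to 23.9% and that of Fbln2 from 29.5% to 40.8%.

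**Figure D4:**
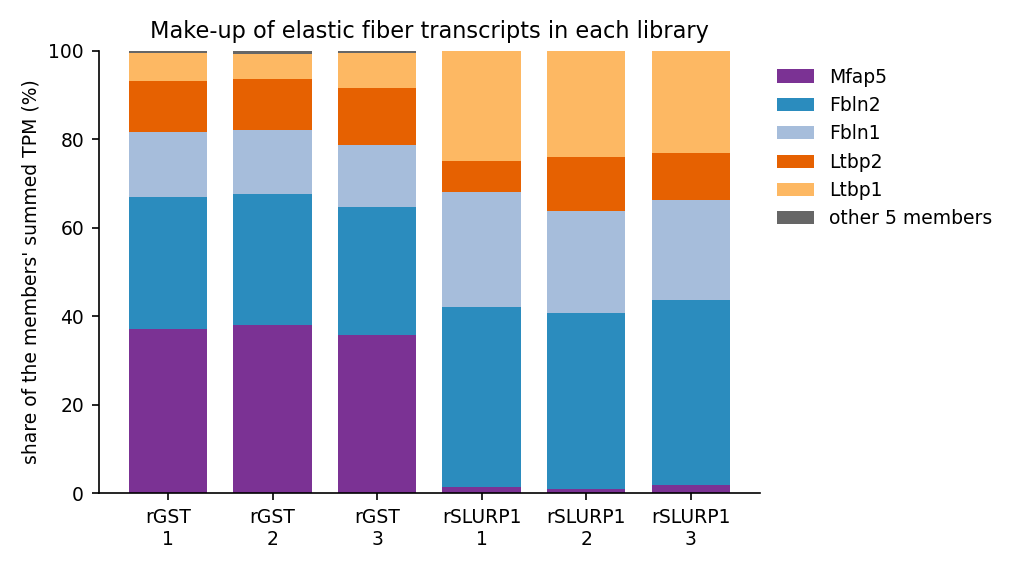
Share of the summed TPM of the 10 genes held by each gene, in percent, for each library. Mfap5 takes 36.9% on average with rGST and 1.36% with rSLURP1, where Fbln2, Fbln1 and Ltbp1 make up most of the sum.

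Other genes of the same families changed by less than 2-fold where tested. Of 10 relatives (other fibrillin, fibulin, EMILIN and LTBP genes), 4 were tested, 3 were lower, 1 was higher and none passed 2-fold. Over all tested genes 58.5% were lower and 8.66% higher, with 7.06% and 1.15% past 2-fold. The median log2 change of the 4 was -0.54, beside -0.33 for all tested genes. Efemp2, which encodes fibulin-4, needed for elastic fiber assembly, fell from 197.7 ± 8.85 to 140.6 ± 3.65 TPM (SD, n = 3, log2 change -0.49, adjusted p = 6.48e-05 in limma). Emilin1, the gene of an elastin-interface glycoprotein, fell from 149.4 ± 8.17 to 82.2 ± 7.53 TPM (-0.86, adjusted p = 4.89e-05 in limma). The other 6 relatives stayed below 1 TPM in every library, Fbn2 and Hmcn1 at 0.

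Of the remaining LTBP genes, one was called lower and the other higher. Ltbp3, whose product binds latent TGF-β, fell from 234.0 ± 1.62 to 154.6 ± 8.52 TPM (SD, n = 3, log2 change -0.60, adjusted p = 3.10e-05 in limma). Ltbp4, whose product binds fibulins and latent TGF-β1, rose from 45.3 ± 1.62 to 51.9 ± 3.22 TPM (0.19, adjusted p = 0.0223 in limma). The ratio of Ltbp3 to Ltbp4 was 5.16 ± 0.150 and 2.98 ± 0.0807, without overlap (exact permutation p = 0.1). The call for Ltbp4 was lost, at adjusted p of 0.0585, 0.0746 and 0.0589, without the first rGST, the second rGST or the second rSLURP1 library. After median-ratio scaling Ltbp4 was at 0.55 (adjusted p = 1.06e-04) and Efemp2 at -0.13 (adjusted p = 0.0310), and correcting for the length and GC content of transcripts ended the call for Ltbp3 (adjusted p = 0.0858).

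Lysyl oxidases crosslink elastin and collagen. Lox and Loxl1, the members best known for elastin, did not pass 0.01 TPM in any library, and Loxl2 did not pass 0.13. Of the 5 genes, 2 were tested and 1 was lower, beside 58.5% of all tested genes. Loxl3 fell from 13.4 ± 1.63 to 7.67 ± 1.60 TPM (SD, n = 3, log2 change -0.75, adjusted p = 0.00325 in limma), a call that median-ratio scaling ended (adjusted p = 0.0534). Loxl4 was not called in the deposited TPM at 0.12, and was called higher after median-ratio scaling at 0.43 (adjusted p = 0.0300). The median log2 change of the 2 tested genes was -0.31, beside -0.33 for all tested genes.

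ADAMTS and ADAMTS-like proteins bind fibrillin microfibrils and influence their assembly. Of 9 such genes, 7 were tested, 5 were lower, 3 of them by at least 2-fold, and none was higher, with a median log2 change of -0.95. Over all tested genes 58.5% were lower and 7.06% were lower by at least 2-fold. The same counts, 5 lower and 0 higher, came after median-ratio scaling, where 24.6% of all tested genes were lower. Adamtsl2, which binds fibrillin-1 and LTBP1, read 6.35, 4.54 and 4.52 TPM with rGST and 0, 0.03 and 0 with rSLURP1 (log2 change -2.59). Thsd4, the gene of ADAMTSL6, which promotes fibrillin-1 assembly, fell from 24.3 ± 1.92 to 4.67 ± 0.630 TPM (SD, n = 3, -2.16, adjusted p = 3.86e-06 in limma). Adamtsl2 passed the filter through its rGST libraries alone, so it had to differ, and its change is given with no test. In the deposited TPM without it, 4 of 6 genes were lower, 2 of them by at least 2-fold, with a median of -0.84. After median-ratio scaling without it, 4 of 6 were again lower, 2 of them by at least 2-fold.

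Another list held the genes of TGF-β ligands and of proteins that bind or activate latent TGF-β. Of 10 listed, 7 were tested and 6 were lower, with a median of -1.28. Lower by at least 2-fold were 5 of the 7: Tgfb2, Tgfb3, Itgb5, Itgb8 and Thbs1. Over all tested genes the shares were 58.5% lower and 7.06% lower by at least 2-fold. After median-ratio scaling 5 were lower, 3 of them by at least 2-fold, and 2 higher, beside 24.6%, 3.74% and 26.6% of all tested genes. Tgfb2 passed the filter through its rGST libraries alone, so it had to differ. In the deposited TPM without it, 5 of 6 were lower, 4 of them by at least 2-fold, with a median of -1.30. After median-ratio scaling without it, 4 of 6 were lower, 2 of them by at least 2-fold. Integrin β5 (Itgb5), a partner of αv that binds the latency peptide, fell from 421.6 ± 12.2 to 133.6 ± 9.33 TPM (SD, n = 3, log2 change -1.65, adjusted p = 7.74e-07 in limma). Thrombospondin-1 (Thbs1), an activator of latent TGF-β, fell from 850.1 ± 11.1 to 286.9 ± 20.2 TPM (-1.57, adjusted p = 7.75e-07 in limma). The ligands differed: Tgfb3 fell by 1.28 on the log2 scale and Tgfb2 was at 2.5 and 0.447 TPM, whereas Tgfb1 was at 49.8 ± 1.48 and 51.1 ± 5.32 TPM (0.03, adjusted p = 0.736 in limma) and was called higher after median-ratio scaling (0.39). Itgav was called lower in the deposited TPM at -0.14 and higher at 0.21 after median-ratio scaling, so its direction depends on the scaling.

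Of 10 genes for proteases that degrade elastin or other matrix proteins, 9 were in the table and 4 were tested. Of these, 3 were lower and 1 was higher, beside 58.5% and 8.66% of all tested genes. Their median log2 change was -0.47, beside -0.33 for all tested genes. Mmp14, a membrane-bound metalloproteinase, fell from 440.7 ± 8.47 to 205.7 ± 4.38 TPM (SD, n = 3, log2 change -1.10, adjusted p = 5.72e-07 in limma). Mmp9, a gelatinase, fell by 0.62 on the log2 scale (adjusted p = 0.00757), a call that median-ratio scaling ended (adjusted p = 0.0926). Ctsl, the gene of the lysosomal protease cathepsin L, rose from 1348 ± 81.8 to 1691 ± 109.8 TPM (0.33, adjusted p = 0.00228 in limma). After median-ratio scaling, 1 gene was lower and 1 was higher, beside 24.6% and 26.6% of all tested genes. Mmp12, the macrophage elastase, was not tested, at 0.72, 0.07 and 0.03 TPM with rGST and 1.47, 1.49 and 0.62 with rSLURP1.

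**Figure D5:**
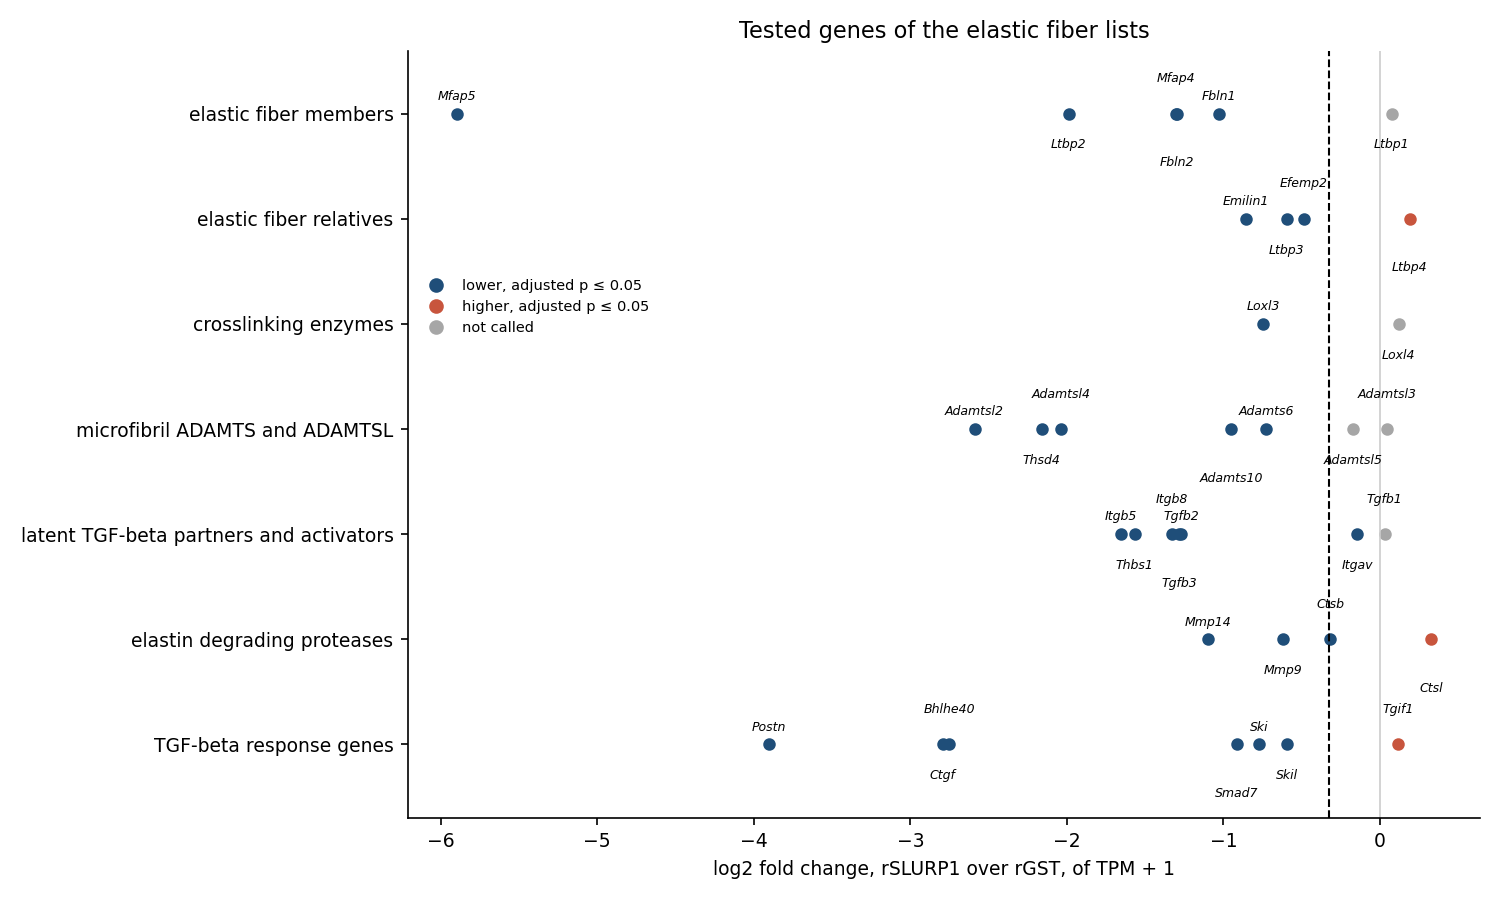
Log2 fold change, rSLURP1 minus rGST, of log2(TPM + 1) for the tested genes of the lists, with the dashed line at the median of all tested genes (-0.33). Most tested genes of the lists lie to the left of that line, and Ltbp1, Ltbp4, Tgfb1, Ctsl and Tgif1 are among those to the right.

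The genes with the profile nearest to that of Mfap5 over the 6 libraries were Itgbl1, Omd and Dcn, at root mean square differences of 0.204, 0.249 and 0.391 on the log2 scale after each gene was centred. Mfap5 was chosen for this after its values were seen, since Eln and Fbn1 were not tested. The log2 changes of Itgbl1, Omd and Dcn were -6.05, -5.97 and -6.49, beside -5.90 for Mfap5. Nearness here mostly restates a like difference between the treatments. Omd, which encodes the small leucine-rich proteoglycan osteomodulin, had means of 166.9 ± 5.78 and 1.70 ± 0.383 TPM (SD, n = 3), close to those of Mfap5 in both treatments. Itgbl1, an integrin β-like gene, had means of 104.3 ± 10.2 and 0.58 ± 0.0529 TPM, and passed the filter through its rGST libraries alone.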

How the data were processed

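RNAseq of D2A1 cells in Matrigel was analysed in 6 libraries, grouped by the sample labels. The authors trimmed reads, aligned them to mm10 with STAR (2.5.2b) and estimated expression with RSEM (1.3.3 in the submitters' processing notes; the methods of the study name another version), and deposited TPM with 1 column per library. Of 54146 gene identifiers, 54079 matched GENCODE M21 (GRCm38) without version, which gave coordinates, overlaps, lengths and GC content.

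Genes that reached 1 TPM in 3 or more libraries (12301) were tested on log2(TPM + 1) with limma (3.58.1, R 4.3.3; eBayes with trend) and Benjamini-Hochberg adjustment, at an adjusted p of 0.05 and a fold change of 2. Single values and ratios were tested with exact permutation tests. The fit was tested on simulated data. Python 3.11.15, pandas 2.3.3 and matplotlib 3.10.9 made tables and plots. Promoters were read from RefSeq (GRCm38.p6), which held 7 of the 10 genes; Eln, Mfap4 and Mfap5 had no entry. Motifs were searched on both strands.

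The genes and lists were chosen with earlier results of these data known. Named were all 10 genes, relatives past 2-fold (none was, and the 4 tested were named after their values were seen), and the 2 largest changes in each direction of each other list. Other genes were named after their values were seen. One listed protease, Ctsv, was not analysed here, and 1 listed TGF-β response gene is not reported here. Alternatives were another pseudocount, other filters, median-ratio and quantile scaling, eBayes without trend, a correction for length and GC content (loess, span 0.3), a replicate block, and each library left out in turn.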

Additional observations from a re-analysis of the deposited data

How the results depend on the processing

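Among the alternatives run, the log2 changes of Mfap5, Fbln2, Fbln1 and Ltbp2 kept their direction and their call. Nothing is read from the calls of Mfap4, which passed the filter through rGST alone and left the tested genes when any rGST library was left out and with the filter on all 6 libraries. Over single genes and settings, 87 of 92 values kept their side of the threshold. Those of Mfap4 are among the 87, and nothing is read from them. The other 5 were all of Ltbp1. That gene was called higher after quantile normalization, and after median-ratio scaling or correction for length and GC content, with and without the replicate block. Those settings give 1 of the 10 genes higher in place of 0. Ltbp1 ranged from 0.02 to 0.58 (adjusted p 0.00228 to 0.896, limma). The counts that follow hold Mfap4 wherever it was tested. The number lower by at least 2-fold went from 5 to 3 after median-ratio scaling or correction for length and GC content, with and without the block. It was 4 after quantile normalization and 4 with the filter on all 6 libraries, and ranged from 3 to 5 with a library left out. The number lower was 6 with no filter and 4 with the filter on all 6 libraries, and ranged from 4 to 5 with a library left out.

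The median log2 change of the tested genes of the 10, Mfap4 included, was -1.30, and became -1.69 with a pseudocount of 0.1, -1.03 with no filter, -1.06 after quantile normalization, -1.06 after median-ratio scaling and -0.91 after correction for length and GC content, the last pair whether blocked or not. It ranged from -1.32 to -1.27 with a library left out. Relatives called lower went from 3 to 1 when length and GC content were corrected together with the block, and relatives called higher ranged from 0 to 1 with a library left out.

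Over all genes, 7200 were lower and 1065 higher. Lower and higher counts were 3029 and 3274 with median-ratio scaling, 2905 and 3111 after quantile normalization, 2695 and 3320 after correction for length and GC content, 2472 and 3095 when the latter was blocked, and 2780 and 3094 with median-ratio scaling and the block, a setting chosen after seeing the data. With a library left out they ranged from 6397 to 7023 and from 868 to 1006. The lower share of all calls was 87.1% in the deposited TPM and 48.1% after median-ratio scaling.

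Libraries with the same replicate number did not deviate together (correlations -0.0556, -0.0340 and -0.0607). Deviations from a mean of 3 libraries constrain each other, and the labels do not say what the number means. Whether such libraries shared a culture or a preparation therefore stays unknown. The replicate block gave 6954 lower and 1008 higher genes and left 5 of the 10 genes lower, Mfap4 included. Ltbp1 was then at an adjusted p of 0.480 (limma). TPM gives no depth, so values under 1 TPM carry an unknown counting error.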

Other observations

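Genes known to respond to TGF-β were taken as a list with earlier results of these data known. Of the 8 reported, 7 were tested, 6 were lower and 1 was higher, beside 58.5% and 8.66% of all tested genes. The same counts came after median-ratio scaling, beside 24.6% and 26.6%. Postn, which encodes the matricellular protein periostin, fell from 43.4 ± 4.25 to 1.99 ± 0.523 TPM (SD, n = 3, log2 change -3.90, adjusted p = 1.09e-06 in limma). Ctgf, a matricellular growth factor gene, fell from 37.3 ± 2.35 to 4.52 ± 0.289 TPM (-2.79, adjusted p = 3.46e-07 in limma). Tgif1, which encodes a repressor of TGF-β signaling, rose from 134.7 ± 4.16 to 145.9 ± 3.04 TPM (0.11, adjusted p = 0.0353 in limma). The median log2 change of the 7 was -0.91, beside -0.33 for all tested genes.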
